A study of Mus musculus with 6 samples.

Results

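The 10 genes described here encode proteins that find DNA double-strand breaks, trim their ends and signal their presence: Mre11a, Rad50, Nbn, Rbbp8, Exo1, Atm, Atr, H2afx, Mdc1 and Topbp1. They were taken by name, through the GENCODE M21 annotation, from the 49671 gene rows of a count table, and each of the 10 matched 1 row. The table holds RNA-seq libraries of whole testes from C57BL/6J mice at 12 days post-partum, 3 of the genotype 3xAnkrd31+/+ (wild type) and 3 of the genotype 3xAnkrd31-/- (knockout). Every library was of this strain, tissue and age, and the labels name no other allele or treatment. They say neither which part of Ankrd31 was removed nor what the 3x before each genotype counts. Whether the libraries came from separate animals or litters is also not stated, so p-values measure only the spread between these 6 samples, which may in part be technical.

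Meiotic cells break their own DNA to start recombination, and ANKRD31 acts with the machinery that makes these breaks. The complex of MRE11, RAD50 and NBN binds broken ends, activates the kinase ATM and starts end resection together with CtIP, the product of Rbbp8, after which EXO1 can lengthen the single-stranded tail. Covered single-stranded DNA recruits the kinase ATR, which TOPBP1 activates. Both kinases phosphorylate the tail of the histone variant H2AX, and MDC1 binds that mark and spreads it along the chromatin. In spermatocytes ATR, TOPBP1, H2AX and MDC1 also act in the silencing of the X and Y chromosomes, and ATM limits the number of breaks.

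The 4 stretches of sequence that follow come from genes described below, and no result depends on them. The first is the end of the H2afx coding sequence, with the stop codon last, read from the GENCODE M21 transcript (mm10, plus strand, chr9:44335146-44335193). Its capitals mark the serine and glutamine codons of the tail motif that ATM and ATR recognise. The other 3 are stretches upstream of the RefSeq starts of Mdc1 (plus strand, chr17:35841248-35841497), Topbp1 (plus strand, chr9:103305083-103305214) and Atm (minus strand, chr9:53536741-53536921), from the GRCm38.p6 assembly. Mdc1 and Topbp1 were both lowest in wild-type replicate 2, as were Atm, Atr and other members. Atm starts beside a second gene, as Mre11a, Topbp1 and Atr also do. Capitals in these 3 mark matches to the motifs named after them.
H2afx coding end: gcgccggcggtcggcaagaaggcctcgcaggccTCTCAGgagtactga
Mdc1 upstream: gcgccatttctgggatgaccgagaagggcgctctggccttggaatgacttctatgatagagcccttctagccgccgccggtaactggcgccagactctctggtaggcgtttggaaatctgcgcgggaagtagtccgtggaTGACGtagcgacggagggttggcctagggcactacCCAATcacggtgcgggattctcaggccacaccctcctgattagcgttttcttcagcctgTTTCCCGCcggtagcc
Topbp1 upstream: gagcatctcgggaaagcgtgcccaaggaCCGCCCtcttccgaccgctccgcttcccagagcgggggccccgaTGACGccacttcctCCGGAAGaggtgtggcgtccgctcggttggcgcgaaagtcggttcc
Atm upstream: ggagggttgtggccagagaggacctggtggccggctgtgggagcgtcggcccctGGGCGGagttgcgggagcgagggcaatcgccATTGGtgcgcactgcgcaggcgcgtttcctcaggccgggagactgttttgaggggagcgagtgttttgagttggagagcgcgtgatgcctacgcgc

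The motifs were searched on both strands in the 250 bases before the RefSeq start, for the 5 of 10 genes with an entry (Mre11a, Atm, Atr, Topbp1 and Mdc1). Stretches inside annotated exons are not shown, which left none of the Mre11a or Atr window to print. The short CRE core (TGACG, which also lies within the full CRE), held by 17.8% of all 32851 promoter windows of that length, was found for Mre11a, Atr, Topbp1 and Mdc1. The GC box (GGGCGG, 32.7% of windows) was found for Mre11a, Atm, Atr and Topbp1, and the CCAAT box (CCAAT, 33.8%) for Mre11a, Atm and Mdc1. Mdc1 had 1 match to an E2F motif form (TTTCCCGC, 0.895% of windows) at the capitals nearest its start. Topbp1 had the ETS core (CCGGAAG, 6.91%). The full CRE (TGACGTCA), the NRF1 palindrome and a second E2F form (TTTGGCGC) matched in 0 of the 5 windows. A match describes letters in the window and not a bound site.

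Libraries held 21014060 to 22706296 counts, and 18040 genes passed the filter on low counts, among them all 10 genes described here. Ankrd31 itself was measured at 84.9, 52.3 and 63.2 CPM (reads of a gene relative to its library's effective size) in wild-type replicates 1, 2 and 3, and at 40.8, 33.2 and 38.0 CPM in the knockout replicates. All knockout values lay below all wild-type values, and the gene passed in edgeR with the replicate number as a block (log2 fold change -0.82 ± 0.07 SE, adjusted p = 0.00505) but not without it (-0.84 ± 0.17, adjusted p = 1). DESeq2's Wald test without the block also called Ankrd31 (log2 fold change -0.84, adjusted p = 0.00163). Counts cover the whole gene, so the level checks the labels only in part. Markers of whole testis were present: all 6 Sertoli cell markers, all 6 of spermatogonia, all 5 of Leydig cells and all 7 of early meiotic prophase had counts. Wild-type replicate 3 stood apart in its epididymis and rete markers, summed to 47.1 CPM against 0.364 to 4.51 CPM elsewhere, with the epididymal gene Lcn9 at 0 in all libraries. Leydig cell markers summed to 310 to 357 CPM in wild type and ranged more widely in knockout, from 232 to 728 CPM.

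The genes differed widely in level. Per kilobase of all annotated exons, H2afx was the most abundant in wild-type testes at 47.6 ± 4.70 CPM per kilobase (SD, n = 3). Rbbp8 followed at 28.1 ± 2.95, Mdc1 at 26.6 ± 6.35, Topbp1 at 22.3 ± 3.14, Rad50 at 21.1 ± 0.806 and Nbn at 21.1 ± 1.44 CPM per kilobase, neighbours that do not differ beyond their spread. Atr stood at 16.1 ± 3.46 and Atm at 14.5 ± 1.85 CPM per kilobase, also within their spread. Mre11a at 11.04 ± 0.18 and the exonuclease gene Exo1 at 8.41 ± 0.428 CPM per kilobase came last and differed by more than their SDs.

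This order depended on the length used for Atr and Topbp1. The table gives Atr 23629 exon bases, but its longest coding transcript in GENCODE has 8102 bases, and 11 of its 13 annotated transcripts are of the retained-intron type. Topbp1 has 11226 exon bases, a longest coding transcript of 5224 bases and 6 retained-intron transcripts of 10. Per kilobase of the longest coding transcript, Topbp1 reached 47.9 ± 6.75 and Atr 47.0 ± 10.1 CPM per kilobase in wild type, beside H2afx at 47.6 ± 4.70. The other 8 genes moved little on this scale, as Atm at 15.3 ± 1.95 and Exo1 at 9.08 ± 0.462 show. Which share of Atr counts came from retained introns was not tested.

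**Figure D1:**
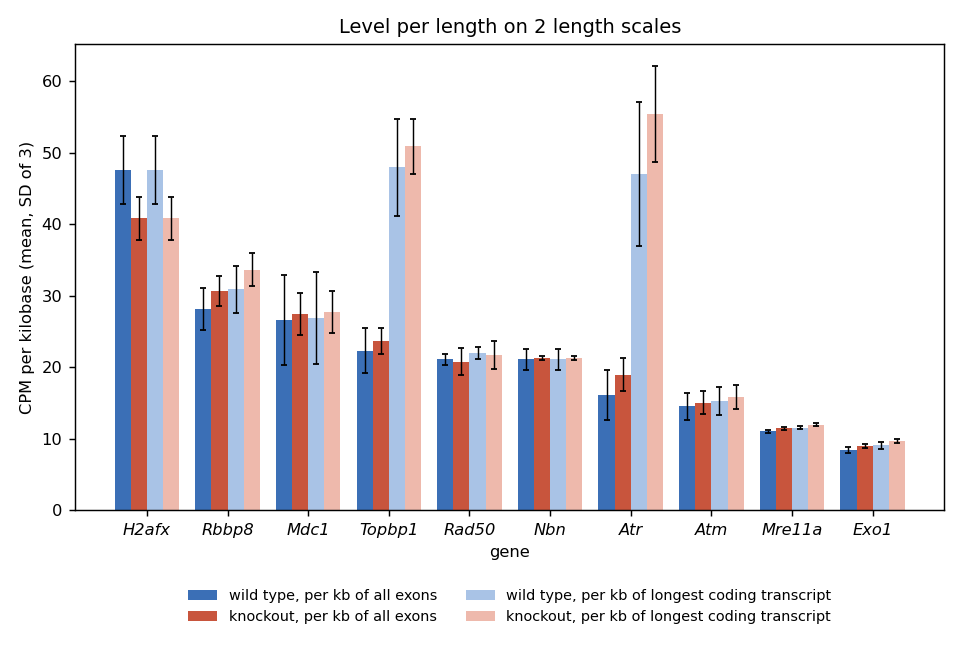
Level of each gene in CPM per kilobase, as the mean of 3 libraries with the SD, for both genotypes and on 2 length scales. On the all-exon scale H2afx stands highest at 47.6 in wild type and Exo1 lowest at 8.41, while Atr and Topbp1 reach 47.0 and 47.9 on the scale of the longest coding transcript.

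Between genotypes, 0 of the 10 genes passed edgeR's quasi-likelihood test after adjustment over all tested genes, where 0.0% of 18040 genes did; 1 of 10 had an unadjusted p under 0.05, against 2.07% of all genes (1 lower, against 1.23%, and 0 higher, against 0.843%). DESeq2 called 0 of 10 (0.0111% of all genes) and limma voom 0 of 10 (0.0%), with 1 of 10 at an unadjusted p under 0.05 in each, against 1.34% and 2.12% of all genes. With the replicate number as a block, edgeR called 0 of 10, where 0.0443% of all genes passed, and 3 of 10 had an unadjusted p under 0.05, against 7.48% of all genes (1 lower, against 3.89%, and 2 higher, against 3.59%). The groups did not overlap for 2 of 10 genes, against 6.59% of all tested genes, and 6 of 10 had the same direction in 3 of 3 pairs of the same replicate number, against 28.3%. The median log2 fold change, knockout over wild type, was 0.05 over the 10 genes and -0.005 over all tested genes, and single values of the 10 genes ran from -0.22 to 0.24.

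The gene of the histone mark, H2afx (ENSMUSG00000049932, mm10 chromosome 9, 44334694 to 44336077, plus strand, 1 exon), was the member with the smallest p and the only one below wild type in all pairs of the same number. It was measured at 73.3, 62.8 and 61.4 CPM in wild-type replicates 1, 2 and 3, and at 61.1, 53.2 and 55.2 CPM in knockout replicates 1, 2 and 3. Every knockout library lay below every wild-type library, a pattern shared by 3.5% of all tested genes, and the highest knockout value nearly touched the lowest wild-type value. The knockout mean was 85.8% of the wild-type mean (56.5 ± 4.10 against 65.8 ± 6.51 CPM, SD, n = 3 each). The ratios of knockout to wild type were 0.833, 0.847 and 0.899 in pairs 1, 2 and 3, and 14.6% of tested genes were lower in 3 of 3 pairs. The log2 fold change was -0.22 ± 0.09 (SE; 95% interval -0.416 to -0.027), with an edgeR unadjusted p of 0.0297, rank 184 of 18040, and an adjusted p of 1. With the block it was -0.22 ± 0.05, with an edgeR adjusted p of 0.266, so the difference did not pass in either fit. In the unblocked fit it was -0.14 without wild-type replicate 1 (edgeR unadjusted p = 0.122, adjusted p = 0.704) and -0.28 without knockout replicate 1.

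H2afx is the shortest of the 10 genes, with 1384 exon bases, and the richest in G and C at 62.28%, where the other 9 lie between 40.82% and 51.0%. After a correction for GC content, chosen after the data were seen, its log2 fold change was -0.17 without the block (edgeR unadjusted p = 0.119) and -0.16 with it (edgeR unadjusted p = 0.0101, adjusted p = 0.647). No member had an unadjusted p under 0.05 in edgeR after the correction without the block, against 348 of all 18040 tested genes. With the block 3 of 10 members had, against 1188 of 18040. Of its 1335 distinct words of 50 bases, 9.66% also occur in transcripts of other genes, the highest share among the members, and the opposite-strand miRNA gene Gm44335 covers 10.2% of its exon bases with at most 1 count per library. How the authors' counting treated reads with several matches is not given in the sources used here.

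Its partner at the mark, Mdc1 (ENSMUSG00000061607, chromosome 17, 35841515 to 35859670, plus strand), varied widely between libraries of 1 genotype. It was measured at 250, 158 and 185 CPM in wild type and 223, 180 and 208 CPM in knockout, so that the knockout range lies inside the wild-type range. The wild-type libraries differed by 1.58-fold from lowest to highest. The log2 fold change was 0.04 ± 0.17 (SE; 95% interval -0.354 to 0.439). Without wild-type replicate 2 it was -0.10 and without knockout replicate 1 -0.03, but without wild-type replicate 1 it was 0.25 (edgeR unadjusted p = 0.0349, adjusted p = 0.563). With the block and without pair 1 it was 0.18 (edgeR unadjusted p = 0.0046, adjusted p = 0.212). Small unadjusted p-values were more common in both fits. Without wild-type replicate 1, 1531 of 18341 tested genes had an edgeR unadjusted p under 0.05. With the block and without pair 1, 1819 of 18104 had, against 374 of 18040 in the main fit.

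Topbp1 (ENSMUSG00000032555, chromosome 9, 103305215 to 103350428, plus strand), whose product activates ATR, was at 286, 215 and 251 CPM in wild type and 275, 243 and 280 CPM in knockout. The groups overlapped, and the log2 fold change was 0.09 ± 0.10. It was -0.01 without wild-type replicate 2 and 0.19 without wild-type replicate 1, and with the block and without pair 1 it was 0.17 (edgeR unadjusted p = 0.00567, adjusted p = 0.234). In that last fit 1819 of 18104 tested genes had an edgeR unadjusted p under 0.05.

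**Figure D2:**
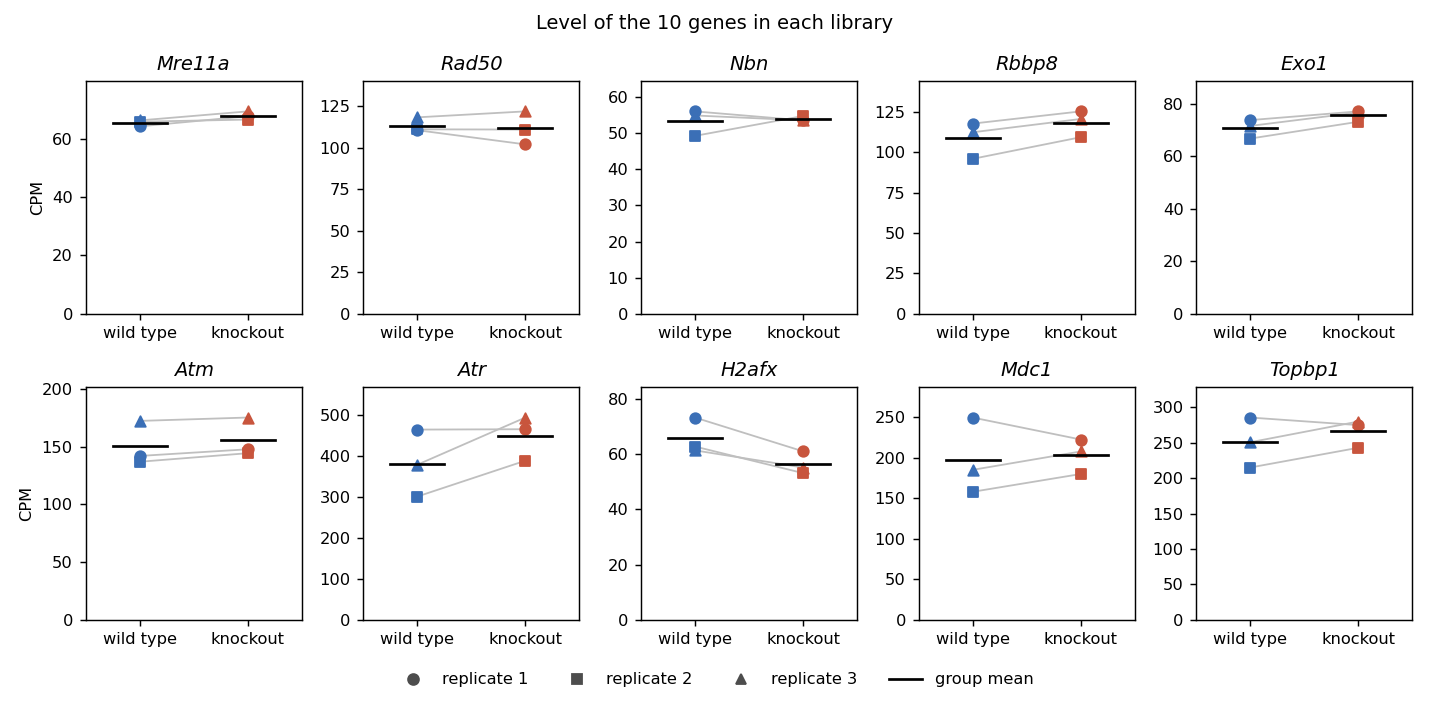
CPM of each of the 10 genes in each library, with the axis from 0; symbols give the replicate number, grey lines join libraries of the same number and black bars are group means. H2afx is lower in the knockout library of every pair, while Mdc1 spans 158 to 250 CPM within the wild type alone.

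Of the kinases, Atr (ENSMUSG00000032409, chromosome 9, 95857597 to 95951781, plus strand) had the largest difference among the members and one of the widest spreads. It was measured at 464, 301 and 378 CPM in wild type and 465, 388 and 493 CPM in knockout. Replicate 1 was nearly the same in both genotypes, and the knockout library was the higher one in pairs 2 and 3. The ratios were 1.0, 1.29 and 1.3, and the log2 fold change was 0.24 ± 0.16 (SE; edgeR unadjusted p = 0.18, adjusted p = 1). With the block it was 0.25 ± 0.08 (edgeR adjusted p = 0.567), and with the block and without pair 1 it was 0.38 ± 0.05 and passed (edgeR adjusted p = 0.013). That fit rests on 2 pairs and called 63 genes in all. In the unblocked fit the value was 0.09 without wild-type replicate 2 and 0.40 without wild-type replicate 1. Atr was therefore called in 1 of 19 alternatives and was the only member called in any.

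Atm (ENSMUSG00000034218, chromosome 9, 53439149 to 53536740, minus strand) was at 142, 137 and 172 CPM in wild type and 148, 144 and 175 CPM in knockout. Replicate 3 was the highest in both genotypes, and the pair ratios were 1.04, 1.05 and 1.02. The log2 fold change was 0.05 ± 0.10 (95% interval -0.183 to 0.285), narrowing to -0.039 to 0.144 with the block. Without wild-type replicate 2 or knockout replicate 3 it was -0.01 and -0.04. The start of Npat, which encodes a coactivator of replication-dependent histone genes, lies 307 bases from that of Atm on the other strand. Npat stood at 132, 125 and 136 CPM in wild type and 136, 139 and 149 CPM in knockout (log2 fold change 0.11 ± 0.06), and it did not pass in edgeR (adjusted p = 1).

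The genes of the sensor complex varied little. Mre11a (ENSMUSG00000031928, chromosome 9, 14784654 to 14837123, plus strand), the nuclease, was at 64.2, 65.8 and 66.2 CPM in wild type and 67.7, 66.5 and 69.3 CPM in knockout. Every knockout value lay above every wild-type value, as for 3.09% of all tested genes, but by little: the log2 fold change was 0.05 ± 0.06 (edgeR adjusted p = 1). Its SD over the 6 libraries was 0.0376 on the log2 scale, smaller than for all but 2.28% of tested genes. Ankrd49, which starts 202 bases from Mre11a on the other strand and shares 154 exon bases with it, was at 38.7 ± 1.43 and 38.5 ± 1.59 CPM (SD, n = 3 each).

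Rad50 (ENSMUSG00000020380, chromosome 11, 53649519 to 53707319, minus strand), the ATPase that tethers the ends, was at 111, 111 and 118 CPM in wild type and 102, 111 and 122 CPM in knockout. The knockout range enclosed the wild-type range, and the log2 fold change was -0.02 ± 0.07 (95% interval -0.187 to 0.144). Nbn (ENSMUSG00000028224, chromosome 4, 15957925 to 15992589, plus strand), which links the complex to ATM, was at 56.1, 49.3 and 55.0 CPM in wild type and 53.6, 54.8 and 53.6 CPM in knockout. Its groups overlapped too, with a log2 fold change of 0.01 ± 0.07 (95% interval -0.144 to 0.174). With wild-type replicate 3 left out Rad50 was at 0.02, with knockout replicate 1 left out it was at 0.04, and Nbn was at -0.04 when wild-type replicate 2 was dropped, so neither value carries a direction.

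The resection genes were higher in the knockout library of each pair without passing the test. Rbbp8 (ENSMUSG00000041238, chromosome 18, 11633276 to 11743207, plus strand) was at 118, 96.0 and 112 CPM in wild type and 125, 109 and 121 CPM in knockout, with overlapping groups and a log2 fold change of 0.12 ± 0.09, which was 0.04 without wild-type replicate 2. With the block it was 0.13 ± 0.05 (edgeR unadjusted p = 0.0154, adjusted p = 0.562). Exo1 (ENSMUSG00000039748, chromosome 1, 175880581 to 175913489, plus strand) was at 73.9, 66.8 and 71.7 CPM in wild type and 77.2, 73.3 and 76.8 CPM in knockout, with a log2 fold change of 0.10 ± 0.07 (edgeR adjusted p = 1; 0.688 with the block), which was 0.06 without wild-type replicate 2. Of the 10 members 5 were higher in 3 of 3 pairs (Mre11a, Rbbp8, Exo1, Atm and Atr), against 13.7% of all tested genes. The 5 include Atr, whose log2 ratio in pair 1 was 0.003.

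**Figure D3:**
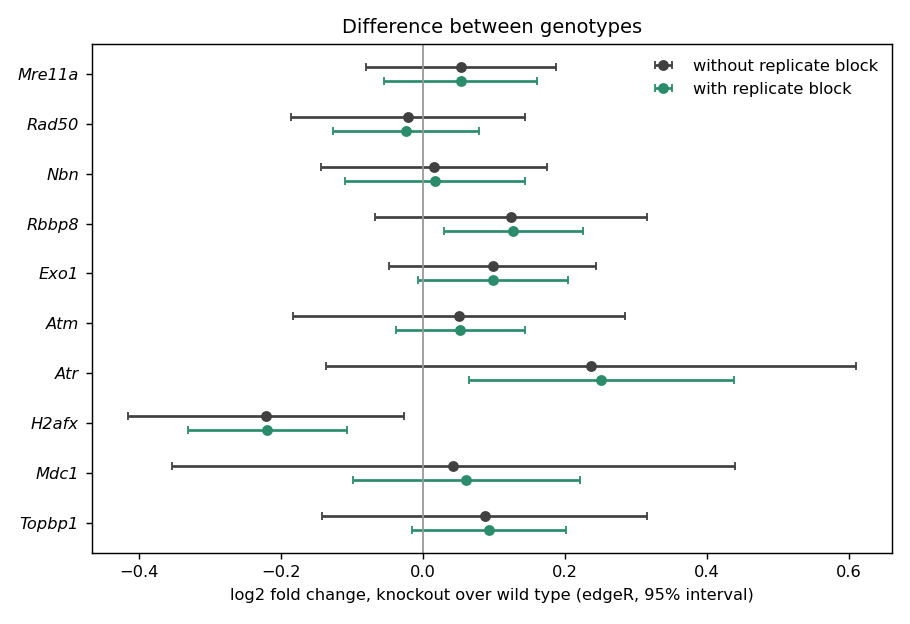
Log2 fold change, knockout over wild type, with its 95% interval from edgeR for each gene, without (grey) and with (green) the replicate number as a block. In the unblocked fit the interval of H2afx alone lies on one side of 0 (-0.416 to -0.027), and after adjustment over all genes none of the 10 passed in either fit.

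Several members shared their lowest library. Relative to each gene's mean on the log2 scale, wild-type replicate 2 was at -0.45 for Atr, -0.33 for Mdc1, -0.26 for Topbp1, -0.24 for Rbbp8 and -0.13 for Exo1, and it was the lowest library for each of these 5. It was also the lowest for Atm (-0.15) and Nbn (-0.12), so for 7 of 10 members. The share of all tested genes that were lowest in this library was not computed, so the count does not set the members apart. Wild-type replicate 1 was at 0.18 for Atr, 0.33 for Mdc1, 0.15 for Topbp1, 0.06 for Rbbp8 and 0.01 for Exo1. For Nbn it was at 0.06, but for Atm it was at -0.10, below the gene's mean. H2afx did not share the low point of wild-type replicate 2, with 0.05 there and its lowest value, -0.19, in knockout replicate 2.

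Markers of early meiotic prophase, when summed, were also lowest in wild-type replicate 2. All 7 (Sycp1, Sycp3, Dmc1, Hormad1, Meiob, Spo11 and Smc1b) had counts in every group, and their summed level was 1561, 889 and 1106 CPM in wild-type replicates 1, 2 and 3 and 1565, 1146 and 1322 CPM in knockout replicates 1, 2 and 3. Of the 7, 7 had a log2 fold change above 0, against 8618 of all 18040 tested genes. The summed ranges were 889 to 1561 CPM in wild type and 1146 to 1565 CPM in knockout. Of 6 spermatogonia markers 1 had a log2 fold change above 0, and of 5 tested pachytene markers 0 had. The 7 markers of pachytene cells, a later stage, summed to 240 CPM in wild-type replicate 1 and 173 CPM in knockout replicate 1, against 101 to 121 CPM in the other 4 libraries. In knockout replicate 1 most of this sum came from Hspa2 (129 CPM) and Ybx2 (33.7 CPM), which also led it in wild-type replicate 1 (158 and 51.9 CPM). Piwil1 was at 8.51 CPM in knockout replicate 1, near its 7.92 to 8.58 CPM in the other 4 libraries and below its 20.9 CPM in wild-type replicate 1. Ldhc, at a low level, was at 1.68 CPM in knockout replicate 1, above its 0.704 to 1.01 CPM in the other 4 libraries. It was at 7.92 CPM in wild-type replicate 1. Ccna1 was at 0.637 CPM in knockout replicate 1, its lowest value, and at 0.724 CPM in wild-type replicate 1. The part of these markers in the values of the members was not tested. In whole testis, fewer cells of a type and less RNA per cell cannot be told apart.

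**Figure D4:**
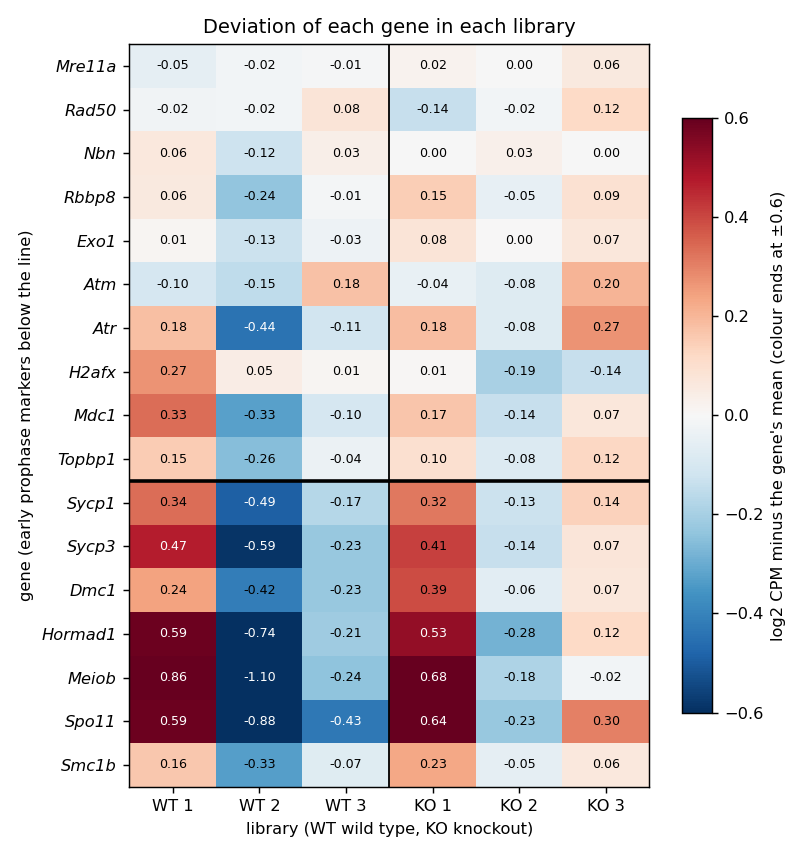
Log2 CPM minus the gene's own mean for the 10 genes (above the line) and 7 early prophase markers (below it) in the 6 libraries; colours end at ±0.6. Wild-type replicate 2 is low for Atr (-0.45), Mdc1 (-0.33) and all 7 markers, and H2afx is at 0.05 there.

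The tested genes closest in profile to each member were found by the root mean square difference of centred log2 CPM over the 6 libraries. For H2afx the closest were Carmil3 (0.0372) and Gm14706 (0.0456), for Atr Gm12475 (0.0249) and Gm15265 (0.0409), and for Mdc1 Rdh11 (0.0175) and Ccnyl1 (0.0292). For Topbp1 they were Rps6ka6 (0.0178) and Wdr47 (0.0179), and for Atm Pgm2l1 (0.0207) and Nr3c1 (0.0284). For Mre11a they were Tpd52l2 (0.00818) and Rab14 (0.0125). The distance is not scaled by a gene's own spread, so it cannot be compared between members. Some tested gene is always closest, and whether these genes share regulation was not tested.

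Of 46 other genes of the pathway in 3 lists, 45 were tested and 0 passed in edgeR, with 0 at an unadjusted p under 0.05 (2.07% of all tested genes); with the block 0 passed and 3 had an unadjusted p under 0.05, all 3 higher, against 3.59% of all tested genes on the higher side. DESeq2 and limma voom without the block called 0 and had 0 unadjusted, against the 1.34% and 2.12% of all tested genes. The median log2 fold change was 0.05 for the clamp and checkpoint list (10 of 15 tested genes above 0), -0.01 for regulators of resection (6 of 14) and 0.02 for the chromatin response (9 of 16). Of all 18040 tested genes, 8618 were above 0.

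In the clamp and checkpoint list the smallest p belonged to Tipin, of the replication fork protection complex, at 99.5 ± 5.95 and 107 ± 6.50 CPM (SD, n = 3 each; log2 fold change 0.11 ± 0.07), followed by the clamp loader gene Rad17 (0.09 ± 0.07), Rhno1 (0.06 ± 0.08) and the clamp subunit gene Rad9a (-0.10 ± 0.12, and 0.03 without wild-type replicate 2). Atrip, which encodes the partner that brings ATR to single-stranded DNA, was the gene left untested, with 2 to 7 counts per library over 5338 exon bases. Another row of the table on the same strand, without a GENCODE name, covers 49.9% of its exon bases and had 21 to 34 counts, so the Atrip count is uncertain. Among regulators of resection, Brca1, which favours resection, was at 91.2 ± 4.19 and 98.5 ± 7.77 CPM (0.11 ± 0.07). Shld1, of the shieldin complex that restrains resection, was at 5.396 ± 0.838 and 4.55 ± 0.756 CPM (-0.25 ± 0.18), with a pair 3 log2 ratio of -0.645 against -0.094 and 0.01 in the other pairs. Samhd1 had -0.07 ± 0.06 and the helicase gene Blm 0.05 ± 0.06.

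In the chromatin list the X-linked Scml2, a germ cell Polycomb-related gene with a role in the sex body of spermatocytes, was at 298, 230 and 258 CPM in wild type and 317, 269 and 300 CPM in knockout. Groups overlapped, all 3 pairs were higher in knockout, and its log2 fold change was 0.17 ± 0.10, or 0.18 ± 0.04 with the block (edgeR adjusted p = 0.316). Without wild-type replicate 2 it was 0.09, and without wild-type replicate 1 it was 0.27. Members of the BRCA1-A ubiquitin complex, Babam1 (-0.08 ± 0.07) and Abraxas1 (-0.09 ± 0.08), and the acetyltransferase gene Kat5 (-0.06 ± 0.07) were the other 3 with the smallest p, and 0 of the 4 passed.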

How the data were processed

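RNA-seq of 6 whole-testis libraries was analysed. The values are raw counts of reads for each gene, not normalized, in 1 table the authors deposited; its length column, per the file headers, gives the exon bases of each gene. The build mm10 and the tools featureCounts 1.6.0, GSNAP and bcl2fastq 2.19.1 are named, per the submitters' processing notes; per the labels' protocols the library kit was strand-specific. The strand setting, the annotation release and the handling of reads with several matches were not given in the sources used here. Of 49763 rows, 92 spike-in rows with 1 count in all were left out, and 49326 of 49671 gene rows matched a GENCODE M21 gene.

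The main test was edgeR's robust two-sided quasi-likelihood test (edgeR 4.0.16 under R 4.3.3, TMM scaling, low counts removed by filterByExpr) and Benjamini-Hochberg adjustment over 18040 genes, with a threshold of 0.05. The median SE was 0.113. Columns were joined to samples by title and grouped by the genotype in the labels. Replicate numbers 1 to 3 recur in both groups. Libraries of the same number deviated together from their group means (correlations of 0.425, 0.258 and 0.284 across genes, all over the limit of 0.1 for pairing), so blocked values are given where they bear on a call. Replicates differed by more than counting noise (chi-square over its degrees of freedom 7.35 to 12.96).

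On simulated counts for this comparison over 17833 genes, edgeR without the block recovered 65.7%, 89.6% and 95.5% of genes changed by 1.5, 2 and 4 fold, with 13 false calls. The simulated libraries were drawn independently, without the shared deviations of same-number libraries, and only genes with higher counts were changed. These shares therefore do not give the power of the fits on the real libraries. Alternatives were DESeq2 1.42.0, limma 3.58.1 voom, other scalings, no filter, fits without each library or pair, and, added after the data were seen, a GC correction (loess, span 0.5). Members and gene lists were chosen with earlier results of these data known. Named genes were all members, the 4 genes of each pathway list with the smallest p, the nearest tested neighbours and the 2 closest profiles; a selection of the last 2 kinds is printed.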

Additional observations from a re-analysis of the deposited data

How the results depend on the processing

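0 of 10 members passed under the 19 alternatives, except Atr with the replicate block and without pair 1 (log2 fold change 0.379). H2afx was lower in 19 of 19 (-0.281 to -0.137), and Mre11a (0.037 to 0.076), Rbbp8 (0.042 to 0.187), Exo1 (0.059 to 0.131) and Atr (0.092 to 0.403) were higher in 19 of 19. Leaving out 1 library at a time gave -0.089 to 0.039 for Rad50, -0.04 to 0.052 for Nbn, -0.042 to 0.168 for Atm, -0.095 to 0.247 for Mdc1, -0.011 to 0.192 for Topbp1 and -0.166 to 0.028 for Rad9a. Leaving out 1 pair with the replicate block gave -0.058 to 0.023 for Rad50, -0.051 to 0.061 for Nbn, -0.001 to 0.18 for Mdc1 and 0.185 to 0.379 for Atr. Nbn was at -0.001 with total counts alone and at -0.001 with the GC correction. The genes called over the whole table were 0 in the unblocked edgeR fit, 8 with the replicate block, 1 without the filter on low counts, 2 with DESeq2, 14 with DESeq2 and the block, 1 with voom and the block, 6 with the GC correction and the block, and, with the block, 63 without pair 1, 57 without pair 2 and 0 without pair 3. The cause of these changes was not tested. The pathway lists had 0 calls in every alternative, and the block on all 3 pairs changed no call of a member. In fits that leave out 1 library or pair, the smaller group is assumed to vary like the rest. The differences of the members were smaller than the smallest change simulated (1.5 fold), so a failure to pass does not show equal levels.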
